A study of Homo sapiens with 8 samples.

Results

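The mRNA of 10 genes of the S100 family (*S100A2*, *S100A4*, *S100A6*, *S100A8*, *S100A9*, *S100A10*, *S100A11*, *S100A14*, *S100A16* and *S100P*), chosen by name, was followed through 8 RNA-seq libraries of PNT2, a human prostate epithelial line that was immortalized in culture. These are 10 of the 33791 genes to which the counts were assigned, and 9 of the 10 passed the filter on low counts (*S100A8* did not). The choice was made with earlier results of these data known, so a share of members called is no test of the family against all genes. There were 4 groups of 2 libraries, replicates A and B: WT cells, an *ERF* KD group, a *CIC* KO group, and a *CIC-ERF* codeletion group, in which both repressors were targeted. *ERF* was silenced with short hairpin RNA under puromycin selection and *CIC* was cut by Cas9 with guide RNAs under blasticidin selection. The methods name a pair of hairpins and a pair of guides for the single-loss lines, and 1 of these hairpins with either guide for the double lines. Which of them each library carries, and whether a line is 1 clone, is not given in the sources used here. *ERF* mRNA goes against the labels of the single-loss groups: it was 55.8 and 55.9 CPM in WT, 81.2 and 77.8 in the labelled *ERF* KD libraries, and 18.8 and 11.7 in the labelled *CIC* KO libraries. *ERF* was 11.6 and 10.4 CPM in the codeletion libraries. *CIC*, whose mRNA need not fall after cutting, was between 66.4 and 132 CPM in the 8 libraries. The study's methods state that CIC and ERF were checked in the lines by qPCR and western blot, which was not analysed here. The single-loss groups are written as labelled *ERF* KD or labelled *CIC* KO, and every direction drawn from them rests on labels that *ERF* mRNA contradicts.

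S100 proteins are small proteins, each with a pair of EF-hand loops, and most of them bind calcium and act as dimers. In members that respond to calcium, it opens a binding face for partner proteins such as annexins and myosin. Several members are also secreted and bind receptors such as AGER and TLR4. Most S100 genes sit side by side on the long arm of chromosome 1, within and next to the epidermal differentiation complex, a group of genes for the outer layers of stratified epithelium. *S100A14* and *S100A2* are known mainly from epithelia, and *S100A2* is a product of basal cells. *S100A4*, also called fibroblast-specific protein 1, is widely used as a mark of mesenchymal cells and binds non-muscle myosin. *S100A8* and *S100A9* form calprotectin, the abundant protein pair of neutrophils and monocytes that inflamed epithelia also make. *S100A10* pairs with annexin A2, *S100A11* and *S100A6* bind annexins among other partners, and *S100P*, first described in placenta, is produced by many carcinomas.

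Of the 10 genes, 9 lie on chromosome 1 (GRCh38, GENCODE release 29). In order, these are *S100A10* (151982915 to 151994390), *S100A11* (152032506 to 152047907), *S100A9* (153357854 to 153361027), *S100A8* (153390032 to 153391188), *S100A6* (153534599 to 153536244), *S100A4* (153543613 to 153550136), *S100A2* (153561108 to 153567890), *S100A16* (153606886 to 153613145) and *S100A14* (153614255 to 153616986). *S100A9* is on the plus strand and the other 8 on the minus strand. *S100P* lies apart, on the plus strand of chromosome 4 (6693069 to 6697170). None of the 10 shares an exonic base with another gene, although the span of *S100A4* contains *S100A3*. *S100A16* ends 1109 bases from *S100A14*.

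The 250 bases before the RefSeq transcription start (GRCh38.p14) are shown for 3 genes on which the comparisons turn. *S100A14* and *S100A9* were far lower in the labelled *ERF* KD libraries, and *S100A16*, the nearest neighbour of *S100A14*, was not. Each sequence reads 5′ to 3′ on the gene's own strand and ends at the base before the start, and capitals mark the E-box word CACCTG or its reverse complement CAGGTG. ZEB and SNAI repressors of epithelial genes are known to bind such words.
S100A14 window, chr1:153616326-153616575, minus strand: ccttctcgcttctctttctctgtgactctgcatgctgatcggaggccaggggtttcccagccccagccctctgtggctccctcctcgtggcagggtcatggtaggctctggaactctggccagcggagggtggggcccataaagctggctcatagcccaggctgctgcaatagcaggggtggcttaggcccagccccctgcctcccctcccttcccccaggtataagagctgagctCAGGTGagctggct
S100A9 window, chr1:153357604-153357853, plus strand: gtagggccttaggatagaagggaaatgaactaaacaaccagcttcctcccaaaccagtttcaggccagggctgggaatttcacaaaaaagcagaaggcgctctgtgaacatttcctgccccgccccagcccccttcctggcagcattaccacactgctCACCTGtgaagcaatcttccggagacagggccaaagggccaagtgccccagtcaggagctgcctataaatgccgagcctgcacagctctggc
S100A16 window, chr1:153613138-153613387, minus strand: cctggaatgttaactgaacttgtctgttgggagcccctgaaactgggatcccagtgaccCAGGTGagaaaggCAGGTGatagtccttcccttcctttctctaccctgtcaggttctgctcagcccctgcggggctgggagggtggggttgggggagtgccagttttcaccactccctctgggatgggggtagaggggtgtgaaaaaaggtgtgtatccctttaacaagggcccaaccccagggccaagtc
The word began 14 bases before the start in *S100A14*, 92 bases before it in *S100A9*, and 191 and 178 bases before it in *S100A16*. *S100A16* has a further RefSeq start, whose window held none. RefSeq gave a start for each of the 10 genes, 14 windows in all. The windows of *S100A6*, *S100A10* and *S100P* and 1 of *S100A2* lie wholly within exons of GENCODE transcripts. CACCTG, searched on both strands, was in 9 of the 14 windows, belonging to 7 genes (*S100A2*, *S100A4*, *S100A8*, *S100A9*, *S100A14*, *S100A16* and *S100P*), and the 3 windows of *S100A8* overlap and hold the same site. Over 35116 promoter windows of the same length, 17.5% held it. The ETS core GGAA was in 14 of 14 windows against 92.7% of all windows, and the longer CCGGAA, which contains GGAA, only in those of *S100A9* and *S100A6* against 14.5%. The words TGAATGAA, TGAATAAA, TCAATGAA, TCAATAAA and TGAATGGA, forms of the CIC octamer, were in 0 of the 14 windows against 4.7% of all windows. The AP-1 word TGANTCA was in 1 window, a start of *S100A2*, against 6.6%. A match is a description of the letters in the window and not of binding.

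Library totals ran from 19477473 to 25813157 estimated counts, of which 93.2% to 93.3% fell on annotated genes. A floor of 3 counts corresponded to between 0.127 and 0.169 CPM. CPM denotes counts scaled to library size after TMM and TPM the deposited length-corrected abundance. Log2 fold changes and adjusted p-values are from edgeR's quasi-likelihood test, fitted to the 8 libraries and adjusted by Benjamini-Hochberg over 14653 genes. The test gives no standard error (SE). The SE printed is the absolute log2 fold change divided by the square root of the test's F statistic. A gene is called changed at an adjusted p under 0.05. Of the prostate and epithelial markers, *CDH1*, *EPCAM* and *KRT8* were abundant in WT, whereas *KLK3* had 0 counts throughout. The basal markers differed: *KRT5* had 139 and 233 CPM in WT and *KRT14* 0.855 and 1.38, and *TP63* had between 0 and 12 counts in a library.

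The family was made up almost entirely of 4 members. *S100A6*, *S100A10*, *S100A11* and *S100A16* together held between 96.2% and 97.9% of the TPM of the 10 genes in each library, and the 10 genes held between 0.294% and 0.451% of all TPM. In WT the order per length, as mean ± SD in TPM (n = 2), was *S100A11* (1601 ± 271), *S100A6* (1043 ± 207), *S100A10* (815 ± 18.8), *S100A16* (391 ± 76.3) and *S100A2* (65.3 ± 22.1). Then came *S100A4* (20.3 ± 2.26), *S100P* (18.96 ± 11.7), *S100A14* (18.6 ± 5.05), *S100A9* (16.6 ± 6.22) and *S100A8* (0.141 ± 0.199). The 2 WT libraries of each gene down to *S100A2* were clear of those of the next, whereas *S100A4*, *S100P*, *S100A14* and *S100A9* overlapped their neighbours in the order. The place of *S100P* rests on the TPM given to 1 short transcript of 313 bases, annotated as non-coding. Its protein-coding transcript had 2.41 and 4.41 TPM in WT.

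**Figure D1:**
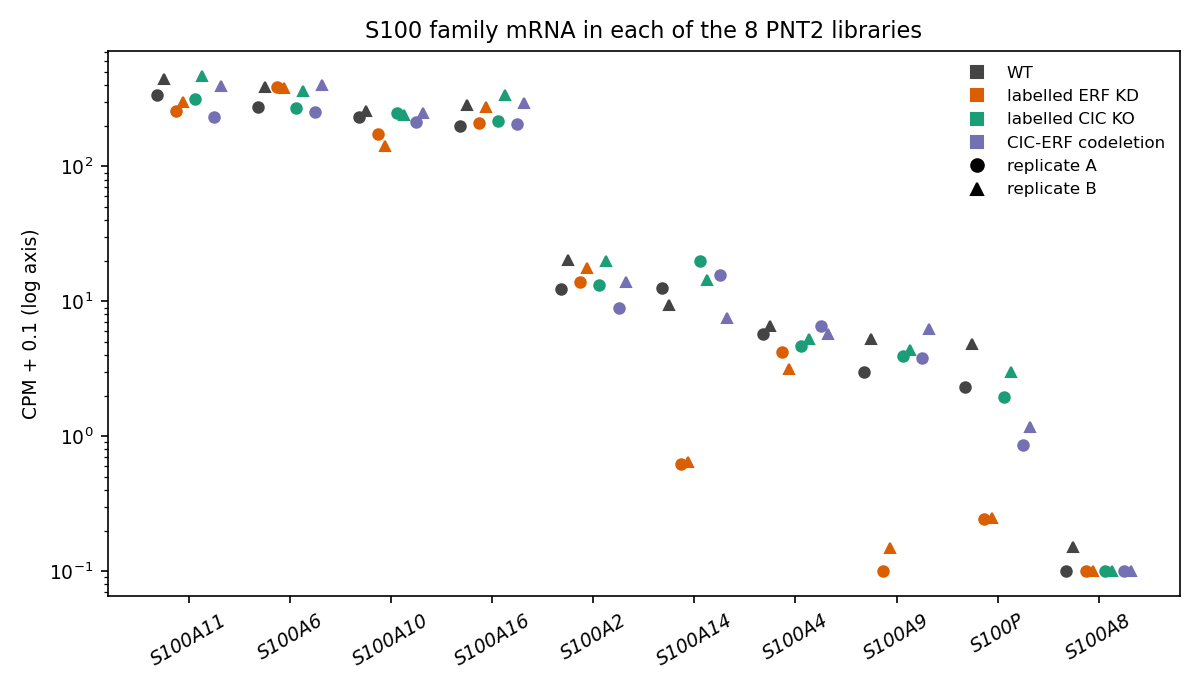
CPM of each of the 10 genes in each library, on a log axis after adding 0.1, with circles for replicate A, triangles for replicate B and a colour for each group. The 4 abundant genes lie above 100 CPM in all 8 libraries, and the labelled *ERF* KD libraries stand apart from the others for *S100A14*, *S100A9* and *S100P*.

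The labelled *ERF* KD libraries had far less *S100A14*, *S100A9* and *S100P* than WT and somewhat less *S100A10*, whereas *S100A2*, *S100A6* and *S100A16* had libraries overlapping those of WT. In this comparison 4 of the 9 members tested were called changed, where 10.1% of the 14653 genes were. All 4 fell, where 6.07% of all genes were called lower, and 0 rose. Since the members were chosen with earlier results known, these shares are a description only. The median log2 fold change of the 9 was -0.65, which is that of *S100A10*, against 0.01 over all genes tested. In bulk RNA, fewer cells of a type and less RNA per cell cannot be told apart.

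*S100A14*, an epithelial member of the family, had 12.4 and 9.23 CPM in WT (replicates A and B), 0.528 and 0.546 in the labelled *ERF* KD libraries, 19.9 and 14.3 in the labelled *CIC* KO libraries, and 15.6 and 7.44 in the codeletion libraries. The labelled *ERF* KD libraries are far below the other 6, which overlap except that both labelled *CIC* KO libraries are above both WT libraries. It fell by 4.32 on the log2 scale compared to WT (SE 0.456, adjusted p = 0.000844). From the pooled counts, 443 in WT and 22 in the labelled *ERF* KD libraries, WT was 20.3-fold higher (95% exact interval 13.2 to 32.7, counting error only). The adjusted p was at most 0.00859 in all 16 alternatives tried. Its main transcript, *S100A14-201*, is protein-coding and held between 31.9% and 91.2% of its TPM in a library. The lowest shares were in the labelled *ERF* KD libraries, whose few counts are divided among several transcripts. In codeletion replicate B it held 62.1%, beside 33.9% for *S100A14-206*, also protein-coding.

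*S100A9* was at or near 0 in the labelled *ERF* KD libraries and readily found elsewhere. It had 61 and 102 counts in WT (2.90 and 5.20 CPM), 0 and 1 in the labelled *ERF* KD libraries, 82 and 88 in the labelled *CIC* KO libraries (3.81 and 4.23 CPM), and 87 and 109 in the codeletion libraries (3.68 and 6.15 CPM). The group labelled *ERF* KD lies below the floor of 3 counts in each library, and the other 3 groups overlap. *S100A9* fell compared to WT (adjusted p = 0.00108). The fitted log2 fold change of -7.05 depends on the prior count, and the ratio of the pooled counts, WT over labelled *ERF* KD, was 164 with a 95% exact interval of 29.05 to 6522. The adjusted p was at most 0.00817 in all 16 alternatives.

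*S100A8*, the usual partner of *S100A9* in calprotectin, was hardly detected in this line. It had 1 count in WT replicate B and 0 in the other 7 libraries, which allows up to 0.169 CPM in the shallowest, and it was not tested. *S100A12*, the other granulocyte member next to them, had 2 counts in codeletion replicate B and 0 elsewhere. Myeloid cells are a well-known source of all 3 proteins. Of a list of 8 myeloid markers, 6 were tested and 1 was called lower in the labelled *ERF* KD libraries, *CSF1R* (log2 fold change -3.23), where 6.07% of all genes were. The summed CPM of the list was 15.6 to 19.1 in WT, 4.67 to 12.2 in the labelled *ERF* KD libraries, 15.97 to 17.9 in the labelled *CIC* KO libraries and 19.1 to 25.8 in the codeletion libraries. *CSF1R* was 1.39 and 0.646 CPM in the labelled *ERF* KD libraries and between 8.97 and 13.4 CPM in the other 6, and *CD14* between 0.497 and 9.82 CPM over the 8 libraries. *FCGR3B* was at 0 in all libraries, *PTPRC* was between 0.625 and 1.09 CPM, *MPO* had 0 to 42 counts, *CSF3R* 2 to 14, *ITGAM* 0 to 11 and *LYZ* 0 to 10. The part of these markers in the change of *S100A9* was not tested.

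*S100P*, a secreted ligand of AGER, had its lowest values in the labelled *ERF* KD libraries and its next lowest in the codeletion libraries. It had 47 and 93 counts in WT (2.23 and 4.74 CPM), 3 and 3 in the labelled *ERF* KD libraries (0.144 and 0.149 CPM), 40 and 60 in the labelled *CIC* KO libraries (1.86 and 2.89 CPM), and 18 and 19 in the codeletion libraries (0.762 and 1.07 CPM). Both labelled *ERF* KD libraries are below all others, and both codeletion libraries lie between them and the remaining 4. Against WT it fell by 4.52 on the log2 scale in the labelled *ERF* KD libraries (SE 0.626, adjusted p = 0.00342), a ratio of pooled counts of 23.5 (95% exact interval 10.5 to 65.1). This fall passed the threshold in all 16 alternatives (adjusted p at most 0.0252), protein-coding transcripts alone included.

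In the codeletion libraries the log2 fold change of *S100P* against WT was -1.93 (SE 0.510), short of the threshold (adjusted p = 0.184). The ratio of pooled counts, WT over codeletion, was 3.85 (95% exact interval 2.66 to 5.69, counting error only). With no filter on low counts the adjusted p was 0.0140, and it was up to 0.663 in the other alternatives. The difference was -1.60 on protein-coding transcripts alone and between -3.68 and -1.28 over the 16 alternatives. The short transcript *S100P-202*, annotated as non-coding, held between 0% and 85.5% of the gene's TPM in a library. In WT it had 10.1 and 24.5 estimated counts, against 36.9 and 68.5 for the protein-coding *S100P-201*. RefSeq places the start of *S100P* at this short transcript, and its window of 250 bases lies wholly within an exon of the longer *S100P-201*. Whether the reads given to *S100P-202* come from non-coding RNA was not tested.

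*S100A10*, the partner of annexin A2 at the plasma membrane, showed a small change at high abundance. It had 234 and 259 CPM in WT, 172 and 142 in the labelled *ERF* KD libraries, 251 and 241 in the labelled *CIC* KO libraries, and 214 and 250 in the codeletion libraries. Both labelled *ERF* KD libraries are below the other 6, which overlap. It fell by 0.65 on the log2 scale compared to WT (SE 0.149, adjusted p = 0.0295). This call was lost without WT replicate A (adjusted p = 0.103), without WT replicate B (0.183) and without *ERF* KD replicate B (0.157), in edgeR with a lone library in 1 group. *ANXA2*, its partner, was between 1985 and 2360 CPM in the 8 libraries and was not called in any comparison.

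*S100A11* and *S100A4* also had both labelled *ERF* KD libraries below both WT libraries, and neither passed the test. The share of all genes with such a separation was not counted. *S100A11* had 336 and 448 CPM in WT, 258 and 302 in the labelled *ERF* KD libraries, 318 and 472 in the labelled *CIC* KO libraries, and 231 and 393 in the codeletion libraries. Its log2 fold change in the labelled *ERF* KD libraries was -0.49 (SE 0.287, adjusted p = 0.346). A fit blocked by replicate letter gave -0.47 (adjusted p = 0.0483), and this p lay between 0.0483 and 0.751 over the 16 alternatives. In CPM, replicate B exceeded replicate A in all 4 groups for *S100A11*, *S100A2*, *S100A16* and *S100P*, and in 1 of 4 groups for *S100A14*. In the labelled *ERF* KD libraries the replicates had equal counts of *S100P* (3 and 3) and *S100A14* (11 and 11). The excess of B there comes from the scaling to library size alone.

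**Figure D2:**
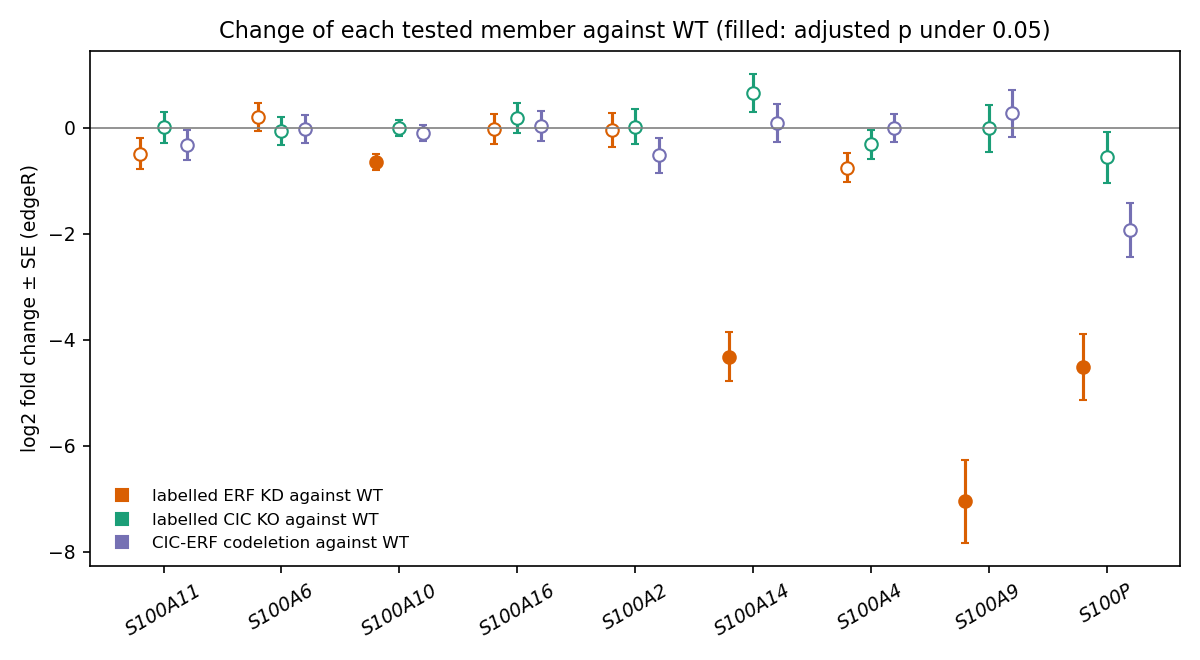
Log2 fold change against WT with its SE for the 9 members tested, in the labelled *ERF* KD libraries, the labelled *CIC* KO libraries and the codeletion libraries, with filled circles at an adjusted p under 0.05. The 4 filled circles are *S100A10* (-0.65), *S100A14* (-4.32), *S100A9* (-7.05, a value that depends on the prior count) and *S100P* (-4.52), all in the labelled *ERF* KD libraries.

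Of the epithelial pair set against the mesenchymal-linked *S100A4*, *S100A14* fell in the labelled *ERF* KD libraries, and neither *S100A2* nor *S100A4* passed the test. *S100A2* had 12.3 and 20.0 CPM in WT, 13.9 and 17.5 in the labelled *ERF* KD libraries, 13.1 and 19.7 in the labelled *CIC* KO libraries, and 8.76 and 13.9 in the codeletion libraries. The groups overlap, except that both codeletion libraries are below both labelled *ERF* KD libraries, the nearest pair by less than 0.1 CPM. The log2 fold change of *S100A2* against WT was -0.04 in the labelled *ERF* KD libraries (SE 0.329, adjusted p = 0.958) and -0.52 in the codeletion libraries (SE 0.332, adjusted p = 0.533). Without single libraries the first of these was between -0.36 and 0.35, so that its sign is not determined.

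*S100A4* had 5.60 and 6.47 CPM in WT, 4.08 and 3.08 in the labelled *ERF* KD libraries, 4.56 and 5.20 in the labelled *CIC* KO libraries, and 6.43 and 5.58 in the codeletion libraries. The labelled *ERF* KD libraries are the lowest of the 8. The log2 fold change against WT was -0.75 (SE 0.274), with an unadjusted p of 0.0244 and an adjusted p of 0.131. On protein-coding transcripts alone, an alternative chosen after seeing the data, it was -0.39 (SE 0.490, adjusted p = 0.689). The non-coding transcript *S100A4-206* held between 25.7% and 51.4% of the gene's TPM. Its log2 fold change was below 0 in each of the 16 alternatives, between -0.97 and -0.39.

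Within a library, the log2 ratio of *S100A14* to *S100A4* in CPM was 1.15 and 0.51 in WT, -2.95 and -2.49 in the labelled *ERF* KD libraries, 2.13 and 1.46 in the labelled *CIC* KO libraries, and 1.28 and 0.42 in the codeletion libraries. The ratio was lower in both labelled *ERF* KD libraries than in the other 6. The log2 ratio of *S100A2* to *S100A4* was 1.13 and 1.63 in WT, 1.77 and 2.51 in the labelled *ERF* KD libraries, 1.52 and 1.92 in the labelled *CIC* KO libraries, and 0.45 and 1.31 in the codeletion libraries. For this ratio both labelled *ERF* KD libraries were above both WT libraries and overlapped the labelled *CIC* KO libraries. Counts of different genes are not comparable in level without a length, so only the differences between libraries in these ratios are read. The ratios were not tested.

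**Figure D3:**
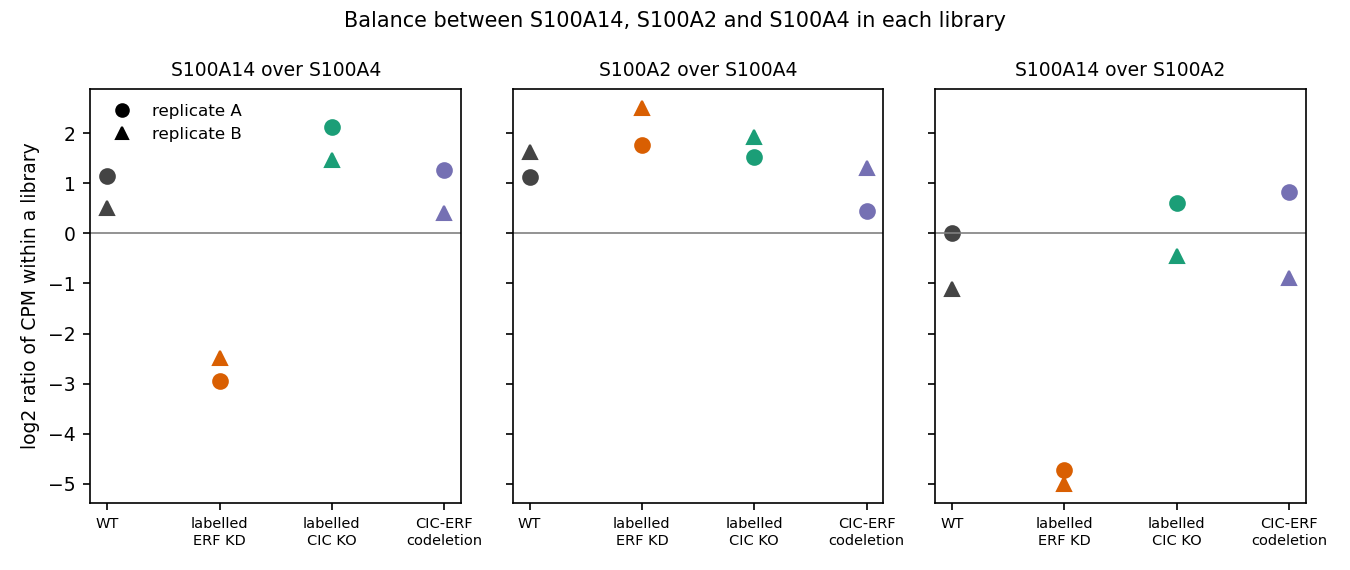
Log2 ratio of CPM within each library for *S100A14* over *S100A4*, *S100A2* over *S100A4* and *S100A14* over *S100A2*, with circles for replicate A and triangles for replicate B. The labelled *ERF* KD libraries lie below the others in the 2 ratios with *S100A14* as numerator (-2.95 and -2.49 over *S100A4*) and at 1.77 and 2.51 in the ratio of *S100A2* to *S100A4*.

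Other epithelial and mesenchymal genes moved in the same libraries. Of 13 epithelial markers tested, 12 were called lower than WT in the labelled *ERF* KD libraries, where 6.07% of all genes were called lower. Among them were *CDH1* (log2 fold change -4.41), *GRHL2* (-3.44) and *OVOL1* (-4.29). The marker not called, *KRT8*, was at -0.88 (adjusted p = 0.0543), and the median of the 13 was -3.45. The fold change of *S100A14* (-4.32) lies within the range of this list (-4.41 to -0.87), and that of *S100A2* (-0.04) lies outside it. Of 12 mesenchymal markers, 5 were called higher (*VIM*, *ZEB1*, *ZEB2*, *CDH2* and *TWIST1*, from 1.23 for *TWIST1* to 3.45 for *VIM*) and 1 was called lower (*FN1*). Over all genes 4.01% were called higher. *S100A4*, at -0.75, did not rise with these 5. Among the markers not called, *SNAI2* (-1.14) and *ACTA2* (-1.68) also had negative log2 fold changes. Those of *SPARC*, *COL1A1*, *COL1A2* and *PDGFRB* were positive. The part of these genes in the changes of the S100 genes was not tested.

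*S100A6* and *S100A16* were abundant in all groups, and neither was called in any comparison. *S100A6*, which binds annexins and the ubiquitin ligase adaptor CACYBP, had 274 and 389 CPM in WT, 385 and 381 in the labelled *ERF* KD libraries, 273 and 363 in the labelled *CIC* KO libraries, and 251 and 403 in the codeletion libraries. *S100A16*, a widely expressed member, had 201 and 286 CPM in WT, 208 and 273 in the labelled *ERF* KD libraries, 216 and 336 in the labelled *CIC* KO libraries, and 206 and 295 in the codeletion libraries. For both genes each group overlaps WT. The log2 fold change in the labelled *ERF* KD libraries was 0.21 for *S100A6* (SE 0.259, adjusted p = 0.678) and -0.01 for *S100A16* (SE 0.282, adjusted p = 0.984), and leaving out single libraries turned the sign of both.

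**Figure D4:**
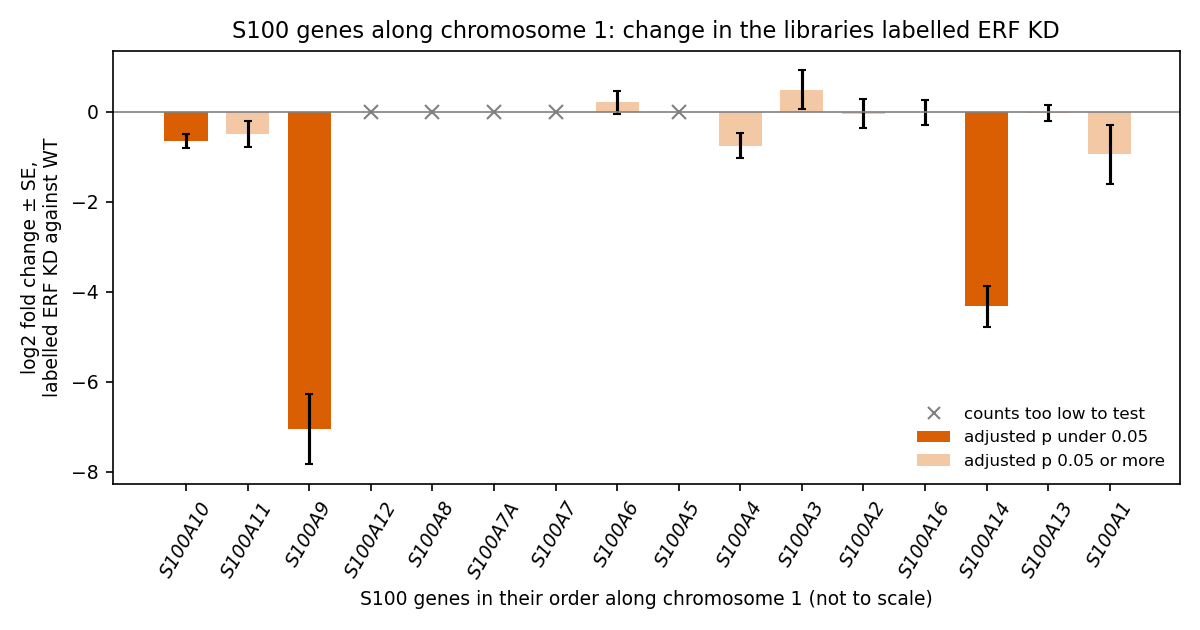
Log2 fold change with its SE in the labelled *ERF* KD libraries against WT for the S100 genes of chromosome 1 in their order along it, not to scale, with dark bars for an adjusted p under 0.05, light bars for those above it and crosses for genes with too few counts to test. *S100A10*, *S100A9* and *S100A14* have dark bars, and *S100A16* and *S100A13*, on either side of *S100A14*, are at -0.01 and -0.02.

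Among the S100 genes of chromosome 1, taken alone, those called changed were not next to one another. *S100A14* (-4.32) lies between *S100A16* (-0.01) and *S100A13* (-0.02, adjusted p = 0.955), and *S100A10* lies next to *S100A11* (-0.49, not called). The S100 genes next to *S100A9* were *S100A11*, 1.31e+06 bases away, and the nearly silent *S100A12*, which was not tested. *TCHHL1*, *TCHH*, *CRCT1* and *IVL*, called lower and described below, lie between *S100A11* and *S100A9*. Of the other 10 S100 genes of the genome, 4 were tested. None was called in any comparison, and none had an unadjusted p under 0.05. These were *S100A13* (32.7 to 47.6 CPM), *S100A3* (1.86 to 4.08 CPM), *S100A1* (0.480 to 2.24 CPM) and *S100B* (0.0930 to 0.745 CPM). *S100A1* and *S100A13* share 235 exonic bases on opposite strands, and the strandedness of the libraries is not given, so their reads cannot be told apart there. *S100A5* had at most 8 counts, *S100A7*, *S100A12* and *S100Z* had 0 to 2, and *S100A7A* and *S100G* had 0 in all libraries.

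Of 45 other genes of the epidermal differentiation complex, 8 were tested. In the labelled *ERF* KD libraries 4 were called lower than in WT, where 6.07% of all genes were called lower. These were *CRCT1*, *TCHHL1*, *IVL* and *TCHH*. *TCHH*, a hair follicle protein, and *TCHHL1* are S100-fused proteins, which carry an S100-like domain at one end. *TCHH* had 20.99 and 19.2 CPM in WT, 4.47 and 8.64 in the labelled *ERF* KD libraries, 20.4 and 19.5 in the labelled *CIC* KO libraries, and 14.4 and 13.6 in the codeletion libraries, and it fell by 1.62 on the log2 scale (SE 0.284, adjusted p = 0.00971). *TCHHL1* had 69 and 38 counts in WT and 3 and 0 in the labelled *ERF* KD libraries (adjusted p = 0.00616), and *CRCT1*, a cysteine-rich gene of the cornified layer, had 88 and 126 against 0 and 3 (adjusted p = 0.00333). *IVL*, the cornified envelope protein involucrin, had 23.8 and 29.7 CPM against 1.68 and 8.39 (log2 fold change -2.41, SE 0.607, adjusted p = 0.0421). In the codeletion against the labelled *ERF* KD libraries, 3 of the 8 were called higher and 1 lower, where 11.7% of all genes were called. Those higher were *CRCT1* (log2 difference 5.70), *TCHHL1* (5.02) and *TCHH* (1.10). The gene called lower was *FLG*, another S100-fused protein (log2 difference -2.66, SE 0.625, adjusted p = 0.0298). *FLG* had 1.76 and 1.78 CPM in WT, 1.297 and 1.94 in the labelled *ERF* KD libraries, and 0.127 and 0.395 in the codeletion libraries.

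Against the labelled *CIC* KO libraries, those labelled *ERF* KD gave the same 4 members. In this comparison 4 of 9 were called, all lower, where 9.4% of all genes were called and 5.65% were called lower. The comparison shares the labelled *ERF* KD libraries with the one against WT. The log2 difference was -4.98 for *S100A14* (SE 0.459, adjusted p = 0.000452), -3.96 for *S100P* (SE 0.626, adjusted p = 0.00619) and -0.65 for *S100A10* (SE 0.149, adjusted p = 0.0312). For *S100A9* the ratio of pooled counts was 165 (95% exact interval 29.1 to 6540, adjusted p = 0.00102). The call of *S100A10* was lost in 6 of the 16 alternatives, with an adjusted p up to 0.160.

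In the labelled *CIC* KO libraries, whose *ERF* mRNA was low, 0 of the 9 members were called against WT by edgeR or DESeq2, and 0 had an unadjusted p under 0.05. Over all genes 0% were called (0 of 14653, with 587 at an unadjusted p under 0.05, and 26 called by DESeq2). *ERF* itself, at -1.87 (SE 0.211, adjusted p = 0.248), was not called by edgeR here, so a gene not called is not shown to be unchanged. The largest differences were 0.66 for *S100A14* (SE 0.353, adjusted p = 0.9997), which was between 0.40 and 0.89 over the alternatives, and -0.55 for *S100P* (SE 0.479, adjusted p = 0.9997). The remaining members were between -0.31 and 0.18.

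In the codeletion libraries 0 of the 9 members were called against WT, where 0.0682% of all genes (10 of 14653) were. DESeq2 also called 0, and 1 member, *S100P*, was at an unadjusted p under 0.05 in edgeR (0.00511, adjusted p = 0.184). In the codeletion against the labelled *ERF* KD libraries, *S100A10* was called at an unadjusted p of 0.00518 (adjusted p = 0.0464). The unadjusted p needed for a call thus differs between comparisons, and so counts of calls are not on the same footing. The median log2 fold change of the members was -0.02. *S100A14* (0.09, SE 0.354), *S100A9* (0.28, SE 0.442) and *S100A10* (-0.09, SE 0.148), which were low in the labelled *ERF* KD libraries, had codeletion libraries that overlap those of WT. *S100A14* differed between the 2 codeletion libraries by 1.07 on the log2 scale, more than in any other group, with replicate A the higher. Against the labelled *CIC* KO libraries, 0 members were called by edgeR or DESeq2 and 1, *S100P*, was at an unadjusted p under 0.05 (log2 difference -1.38, SE 0.510, adjusted p = 0.552), where 0% of all genes were called (0 of 14653, 1216 unadjusted).

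Against the labelled *ERF* KD libraries, the codeletion libraries had more of the same 4 members. In this comparison 4 of 9 were called, all higher, where 11.7% of all genes were called and 6.04% were called higher. *S100A14* was higher by 4.41 on the log2 scale (SE 0.456, adjusted p = 0.000741), a 22.5-fold ratio of pooled counts (95% exact interval 14.7 to 36.2). *S100A9* was 194-fold higher by pooled counts, 196 against 1 (95% exact interval 34.4 to 7704, adjusted p = 0.000796). These 2 calls held in all 16 alternatives. *S100P* was higher by 2.59 (SE 0.647, adjusted p = 0.0376) and *S100A10* by 0.56 (SE 0.149, adjusted p = 0.0464). The log2 difference of *S100P* was between 0.68 (limma on log2(TPM + 1)) and 2.82 over the alternatives, with an adjusted p up to 0.426. Its call was lost in 8 of the 16 alternatives and that of *S100A10* in 12 of 16, including each of the 8 that leave out 1 library. Without labelled *ERF* KD replicate A or B, or codeletion replicate A or B, 2 of the 4 calls were left. *S100A4*, at 0.75 (SE 0.274, adjusted p = 0.122), was not called.

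The interaction term asks whether the change in the codeletion differs from the sum of the 2 single-loss changes on the log2 scale, and does not depend on which single-loss label is which. It was called for 2 of 9 members, both above 0, where 4.15% of all genes were called and 2.67% were called above 0. For *S100A14* it was 3.75 (SE 0.574, adjusted p = 0.0107), and it was not called with limma on log2(TPM + 1), where it was 2.69 (adjusted p = 0.0547). For *S100A9* it was called in all 15 alternatives (adjusted p = 0.00476, at most 0.0205), and its fitted size depends on the prior count. For *S100P* it was 3.14 (SE 0.808, adjusted p = 0.0797), or 3.10 (adjusted p = 0.0252) in the blocked fit. The adjusted p of *S100P* lay between 0.00472 and 0.357 over 15 alternatives. For *S100A10* it was 0.56 (adjusted p = 0.208) and for *S100A4* 1.05 (adjusted p = 0.199).

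Across the 8 libraries, the levels of some members ran with *S100A14* and those of others with *S100A2*, as a description over libraries that share their groups and replicate letters. Pearson's r of log2(CPM + 0.1) was 0.95 between *S100A9* and *S100A14*, 0.93 between *S100A9* and *S100A10*, and 0.77 between *S100A4* and *S100A14*. For *S100A9*, with 0 and 0.0497 CPM in the labelled *ERF* KD libraries, r depends on the added 0.1 and largely restates the group difference. *S100A2* had r of 0.78 with *S100A16*, 0.77 with *S100A11* and 0.75 with *S100A6*, but -0.24 with *S100A14*. *S100A14* and its neighbour *S100A16* had r of 0.02. Among 12598 protein-coding genes, those most like *S100A14* were *PRSS22* (r = 0.996), *SH3BP1* (0.992) and *CRYBG2* (0.989). *PRSS22*, an epithelial serine protease, had 57.7 and 47.2 CPM in WT, 6.15 and 4.87 in the labelled *ERF* KD libraries, 84.8 and 68.1 in the labelled *CIC* KO libraries, and 71.8 and 48.9 in the codeletion libraries, the same order of groups as *S100A14*. Those most like *S100A2* were *CD68* (0.979), *AC093512.2* (0.975) and *DNER* (0.967), and those most like *S100A4* were *MAP4K3* (0.969), *ELF1* (0.967) and *HLA-C* (0.961).

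Of 14 genes listed as partners and receptors of S100 proteins, among them the annexins *ANXA1*, *ANXA2*, *ANXA6* and *ANXA11*, the myosin *MYH9* and the receptors *AGER*, *TLR4* and *BSG*, all were tested and 1 was called in a comparison with WT, in the labelled *ERF* KD libraries, where 10.1% of all genes were called. A share of 1 in 14 is no more than this background. *ANXA6*, a membrane-binding annexin that S100 proteins are known to bind, had 11.4 and 4.89 CPM in WT, 79.3 and 43.7 in the labelled *ERF* KD libraries, 16.4 and 7.41 in the labelled *CIC* KO libraries, and 28.4 and 10.04 in the codeletion libraries. It rose by 2.92 on the log2 scale in the labelled *ERF* KD libraries (SE 0.626, adjusted p = 0.0231), opposite in sign to *S100A10*. *TLR4*, a receptor of calprotectin, had 3.46 and 3.03 CPM in the labelled *ERF* KD libraries against 0.0847 and 0.620 in the codeletion libraries (log2 difference -3.26, adjusted p = 0.0412). The median log2 fold change of the 14 in the labelled *ERF* KD libraries was 0.19.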

How the data were processed

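RNA-seq was performed on 8 libraries of PNT2 cells, 2 in each of 4 groups taken from the sample labels. The authors deposited a table per library, with estimated counts and TPM for 180253 transcripts, in the format of kallisto, whose version is not given in the sources used here. The estimated counts are not normalized, and TPM corrects them for transcript length. The study's methods name RSEM and log2 gene values, and the labels hg19. The names of the 4 single-loss files carry letters opposite to their labels, and the labels were kept.

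Deposited estimated counts of the 153245 transcripts (85.0%) found by identifier in GENCODE release 29 (GRCh38) were summed per gene and rounded. Counts on no annotated gene (under 7% of each library) took no part. edgeR 4.0.16 in R 4.3.3 was used with TMM, filterByExpr (14653 genes) and glmQLFTest in 1 fit of the 4 groups, with Benjamini-Hochberg adjustment over all genes. On counts simulated for the labelled *ERF* KD libraries against WT (14389 genes tested), genes were changed by 1, 2 and 3 on the log2 scale. The test recovered 24 of 69 (34.8%), 40 of 60 (66.7%) and 61 of 71 (85.9%), beside 19 false calls. The false calls are to be read against the genes recovered. Far fewer genes were changed than the 1477 called in the data, and libraries were drawn independently, without differences shared by replicate letter. Intervals of count ratios are exact at 95% and cover counting error only.

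Replicates differed by more than sampling noise (chi-square per degree of freedom 21.7 to 43.4). The A minus B differences correlated between groups (0.136 to 0.335 in 6 of 6 pairs), which meets the criterion for pairs, although no source says what the letters mean; the reported fit has no block, and an alternative fit has. Nothing says that libraries came from separate cultures, so p-values measure the spread between these libraries. The biological coefficient of variation was 0.197, and 0.142 with the letter as a block.

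The members and lists were chosen with earlier results of these data known. All 10 members were named, other S100 genes with their level, partners called against WT, and up to 5 called epidermal differentiation complex genes. The 3 genes most like *S100A14*, *S100A2* and *S100A4* by Pearson's r of log2(CPM + 0.1) were also named. *FLG*, *TLR4* and *ANXA2* were named after their values were seen. Lists of cornified and luminal markers gave 1 gene each that was called lower in the labelled *ERF* KD libraries, *IVL* of 4 tested and *TMPRSS2* of 2 tested. Alternatives were DESeq2 1.42.0, no filter on low counts, the replicate block, length-scaled counts, limma 3.58.1 on log2(TPM + 1) and log2(TPM + 0.1), only the groups compared, protein-coding transcripts only (added after the data were seen) and each of the 8 libraries left out.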

Additional observations from a re-analysis of the deposited data

Results flagged for a closer look

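The change of 2 members in the codeletion libraries differed from the sum of their changes in the single-loss libraries, by the interaction term of edgeR's quasi-likelihood test. For *S100A14* the term was 3.75 on the log2 scale (SE 0.574, adjusted p = 0.0107). Both labelled *ERF* KD libraries were lower than both WT libraries, whereas the codeletion libraries lay on either side of them.

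For *S100A9* the fitted term was 7.34 (SE 0.930, adjusted p = 0.00476). The term and its SE depend on the prior count because the labelled *ERF* KD libraries held 0 and 1 counts.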

How the results depend on the processing

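The counts of members called were 3 to 4 with 1 library left out for the labelled *ERF* KD libraries against WT and against the labelled *CIC* KO libraries, 2 to 3 for the codeletion against the labelled *ERF* KD libraries (4 with all libraries), and 2 for the interaction. The codeletion against the labelled *ERF* KD libraries gave 2 on length-scaled counts, with both limma fits, and with only the groups compared. The codeletion against WT gave 1 with no filter on low counts, and the interaction gave 1 with limma on log2(TPM + 1). The cause of these shifts was not tested.

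With 1 library left out, the log2 fold change in the labelled *ERF* KD libraries turned sign for *S100A2* (-0.36 to 0.35), *S100A6* (-0.027 to 0.48) and *S100A16* (-0.26 to 0.27). Single values were 0.12 for *S100A2* and 0.17 for *S100A16* without *ERF* KD replicate A. It turned for *S100P* in the labelled *CIC* KO libraries (-0.9995 to 0.089) and for *S100A11* in the codeletion (-0.76 to 0.0016). None of these was called. A group left with 1 library was assumed to vary like the others.

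The replicate block gave 5 members in the labelled *ERF* KD libraries against WT (*S100A11* added, log2 fold change -0.47, adjusted p = 0.0483) and 3 in the interaction (*S100P* added, 3.10, adjusted p = 0.0252). It changed no other call of a member.

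Over all genes the counts depended on the fit: 1032 to 2671 genes were called in the labelled *ERF* KD libraries against WT over the alternatives that keep all libraries (1477 in the reported fit), 829 to 2424 against the labelled *CIC* KO libraries (1377), 1113 to 3014 in the codeletion against the labelled *ERF* KD libraries (1709), 1 to 768 in the codeletion against WT (10), 312 to 1645 for the interaction (608), 0 to 123 in the labelled *CIC* KO libraries against WT, and 0 to 426 in the codeletion against the labelled *CIC* KO libraries (0 for both). Without WT replicate A or B, 620 and 659 genes were called in the labelled *ERF* KD libraries against WT, and 0 in the codeletion against WT. Depth limits *S100A9*, *S100P* and *S100A8*, whose lowest groups lie at or under 3 counts per library.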
